A study of Mus musculus with 12 samples.

Results

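The 4 earliest libraries of a passage series of mouse embryonic stem cells were compared with the 8 later ones, gene by gene. Libraries were assigned by label. Those numbered 1, at passage 11 or 12, formed the earliest set. Those numbered 2 and 3, at passage 13 to 20, formed the later set, out of 12 libraries in all. This split and the gene lists used below were chosen with earlier results of these data known. The clones came from mice with a floxed Sphk1 and without Sphk2, the genes of the enzymes that make sphingosine 1-phosphate. All cells were thus Sphk2-/-, and all were exposed to 6 uM 4-hydroxytamoxifen for 48 hours before sorting on Cre-GFP. GFP-negative cells are labelled Sphk1fl/fl Sphk2-/- and GFP-positive cells Sphk1-/- Sphk2-/-, and clones 4 and 10 each gave both kinds. Each of these 4 groups therefore holds 1 earliest and 2 later libraries. In clone 4 the earliest libraries were both at passage 11 and the later ones at passage 13 to 16. In clone 10 the earliest were at passage 11 (GFP-negative) and 12 (GFP-positive) and the later ones at passage 17 to 20.

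Each genotype was carried by a pair of clones only, and the sources used here do not give the promoter of the Cre-GFP or say whether feeder cells were used. Cells were grown in serum with leukemia inhibitory factor. Nothing in the labels says that libraries of a group were separate cultures or sorts, so a p-value here reflects only how far these libraries spread, which may in part be technical. Passage goes with the replicate number in every group, so that passage and anything else that libraries numbered 1 had in common cannot be told apart. The passage labels of libraries 2 and 3 rise by 1 from sample to sample across gates and clones, and the comparison therefore uses only the split into earliest and later. The labels do not say how these numbers were assigned, and they may not be true passages.

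Embryonic stem cells in culture draw much of their energy from glycolysis. When oxygen is low, hypoxia-inducible factors escape hydroxylation and degradation and bind DNA at sites with the core ACGTG, where they raise genes for glucose uptake, glycolytic enzymes, lactate export and mitochondrial turnover. Serum-grown cultures also contain rare cells that resemble the embryo at the two-cell stage, and can contain fibroblasts where these serve as feeders.

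Library totals ran from 12968916 to 34258395 counts. The lowest total was that of the earliest clone 10 GFP-negative library, which also had the fewest genes with reads, 15867. Its 10 largest genes held 7.39% of its counts, against 4.23% to 5.22% in the other libraries. Whether this came from passage or from the library was not tested, and counts of genes without it are given below. The stem cell label held in every library by the summed level of 12 markers. That level was 5680 to 10371 CPM in the earliest and 4745 to 8170 CPM in the later libraries. Each of the 12 markers had reads in some library. CPM here is a gene's read count scaled to the effective library size after TMM normalization. Sphk1, the deleted gene, stood at 1.92, 1.89, 0.836 and 0.87 CPM in the earliest libraries, in the order clone 4 GFP-negative, clone 4 GFP-positive, clone 10 GFP-negative and clone 10 GFP-positive, and at 0.73 to 4.17 CPM with a median of 1.63 in the later ones, and was not at 0 in GFP-positive cells. Sphk2 stood at 1.16, 2.29, 3.81 and 5.32 CPM and at 1.78 to 8.95 CPM with a median of 6.24. Counts per gene do not show which exons were read, so they do not check the deletions. The log2 change of Sphk1 was -0.38 (SE 0.51, adjusted p = 0.645), turning to 0.48 without the 2 earliest libraries of clone 10, and that of Sphk2 was -1.06 (SE 0.42, adjusted p = 0.11). Neither passed the test.

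In the earliest libraries, genes of glycolysis and of the response to low oxygen were higher, led by the lactate exporter gene Slc16a3, the mitophagy receptor gene Bnip3 and Ankrd37. Members of the two-cell-like and germline lists and the keratin genes Krt8 and Krt19 were higher as well. Fibroblast markers, among them Postn and Col5a2, were lower. In bulk RNA, fewer cells of a type and less RNA per cell cannot be told apart. Of 15179 genes tested with edgeR, 1930 (12.7%) differed at an adjusted p under 0.05, with 1045 (6.88%) higher and 885 (5.83%) lower in the earliest libraries. With expression corrected for gene length, a choice made after seeing the data, 560 genes were called and 67.5% of them were higher, against 54.1% of the 1930. By CPM alone, without a test, 1662 genes (10.9%) lay above both later libraries in all 4 groups and 1567 (10.3%) lay below both. GFP-negative and GFP-positive libraries that share a clone and a number moved together, so the 4 groups are not independent. The share that chance would give was not worked out, so these counts are descriptive. Log2 changes are given throughout as earliest minus later, and the median over all genes tested was -0.02.

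The count of genes depended on how libraries that share a clone and a replicate number were treated. Such a pair, 1 GFP-negative and 1 GFP-positive library, deviated from its group means together, so a second fit held the pair as a block (limma-voom). With the block 28 genes (0.184%) were called, 27 higher and 1 lower, and all 28 were among the 1930. With counts summed over each pair, which compares 2 earliest with 4 later pairs, edgeR called 0 genes. The smallest adjusted p there was 0.174, and 2530 genes had an unadjusted p under 0.05. By contrast, DESeq2 without pairs called 3474. Single earliest libraries carried much of the count: 50 genes were called without the earliest clone 4 GFP-negative library, 70 without the earliest clone 10 GFP-negative library and 457 without the earliest clone 4 GFP-positive library. The fourth earliest library, clone 10 GFP-positive, moved it least of those 4, to 1616. Among later libraries, the count was 821 and 869 without clone 10 GFP-negative and GFP-positive replicate 2, 1041 without clone 10 GFP-negative replicate 3, and 1155 and 1269 without clone 4 GFP-negative replicates 2 and 3. Without the earliest pair of clone 10 the count was 87, and without that of clone 4 it was 1, Slc16a3. Adjusted p-values of genes are edgeR's unless the block is named, and the 28 genes called with the block were picked out after their values were seen. Among the genes described, Slc16a3, Bnip3, Ankrd37, Tpi1, Pfkl, Aldoa, Aldoc, Egln3, Fam162a, Mgarp, Zfp352, Tex101, Rhox5, Krt8, Itgb7, Aire, Gstp2, Mt4, Dmkn, Chi3l1, Lgals3, Gli2, Postn, Tnc and Col5a2 stayed called by edgeR in all 12 removals of 1 library. The other called genes lost the call in at least 1 removal, most often without the earliest GFP-negative library of clone 4 or of clone 10.

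Slc16a3 (ENSMUSG00000025161, mm10 chromosome 11, 120948480 to 120960868), which encodes the monocarboxylate transporter that exports lactate, had the smallest adjusted p in both fits. Its level was 561, 391, 175 and 97.3 CPM in the earliest libraries of clone 4 GFP-negative, clone 4 GFP-positive, clone 10 GFP-negative and clone 10 GFP-positive cells, the order used for every gene. In the 8 later libraries it ranged from 23.03 to 55.96 CPM with a median of 36.8. Every earliest library stood above every later one, and clone 4 stood above clone 10 at the earliest passage. The log2 change was 2.84 (SE 0.22, adjusted p = 0.000486), and 2.83 (SE 0.27, adjusted p = 0.00167) with the block. It stayed called with any 1 library left out in either fit, at adjusted p = 0.000483 to 0.0102 without the block and 0.00114 to 0.0111 with it.

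Promoters of 4 hypoxia-related genes called in both fits are shown, chosen because each carries the ACGTG core. Each is the 250 bases before the gene start on the gene's strand, 5′ to 3′, from RefSeq on GRCm38.p6 (the build also called mm10), with matches to ACGTG or its reverse complement CACGT in capitals. The start is that of the RefSeq table and can differ from the deposited one: the Slc16a3 window lies within the gene as the authors' coordinates give it.
Slc16a3, chr11:120948817-120949066, plus strand: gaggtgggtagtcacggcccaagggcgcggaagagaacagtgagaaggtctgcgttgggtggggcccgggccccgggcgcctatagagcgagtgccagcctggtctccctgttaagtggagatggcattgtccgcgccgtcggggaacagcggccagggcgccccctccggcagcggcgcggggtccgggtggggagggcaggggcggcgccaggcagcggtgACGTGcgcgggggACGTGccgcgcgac
Bnip3, chr7:138909507-138909756, minus strand: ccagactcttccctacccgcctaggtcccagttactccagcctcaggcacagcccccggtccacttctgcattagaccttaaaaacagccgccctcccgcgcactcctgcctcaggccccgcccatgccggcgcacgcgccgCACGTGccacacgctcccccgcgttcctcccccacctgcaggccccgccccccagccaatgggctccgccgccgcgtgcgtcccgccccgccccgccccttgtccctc
Ankrd37, chr8:45999851-46000100, minus strand: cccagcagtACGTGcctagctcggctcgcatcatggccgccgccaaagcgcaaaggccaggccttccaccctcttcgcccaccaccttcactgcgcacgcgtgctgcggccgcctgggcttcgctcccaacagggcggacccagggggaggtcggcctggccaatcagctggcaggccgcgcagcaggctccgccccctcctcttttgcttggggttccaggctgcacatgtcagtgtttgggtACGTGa
Fam162a, chr16:36071562-36071811, minus strand: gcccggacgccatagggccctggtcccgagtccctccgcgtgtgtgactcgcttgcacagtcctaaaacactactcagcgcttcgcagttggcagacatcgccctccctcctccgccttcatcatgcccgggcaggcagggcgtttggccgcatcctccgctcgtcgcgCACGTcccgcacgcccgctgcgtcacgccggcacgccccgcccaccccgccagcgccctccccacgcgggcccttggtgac
Slc16a3 and Ankrd37 hold 2 separate matches each and Fam162a holds 1. The capitals in Bnip3 read CACGTG, which contains both letter orders at once and is also the E-box of many other factors. The single windows of Tpi1 and Pfkl and both windows of Aldoc hold no match. Of the 48 windows found for 31 of the 34 genes of the glycolysis and hypoxia list, 23 (47.9%) held a match, against 20.8% of 14147 windows of the genes tested and 16.6% of all 32851 windows. List genes also have more windows per gene than genes in general. Among list members that rose, 11 of 24 windows held a match, and among those not called 12 of 24. Of the 28 genes called with the block 24 had a window, and 9 of 27 windows (33.3%) held a match. A match describes letters in this window and not a bound site.

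Bnip3 (ENSMUSG00000078566, mm10 chromosome 7, 138890836 to 138909519), a receptor that tags mitochondria for degradation, stood at 179, 97.7, 59.9 and 45.4 CPM against 13.7 to 20.4 CPM with a median of 16.5. Ankrd37 (ENSMUSG00000050914, mm10 chromosome 8, 45996902 to 45999867), an ankyrin repeat gene known as a target of hypoxia-inducible factor, stood at 44.9, 21.9, 12.1 and 6.04 CPM against 1.33 to 2.48 CPM with a median of 2.14. For both genes the earliest libraries lay above all later ones and descended from clone 4 GFP-negative to clone 10 GFP-positive cells, as for Slc16a3. The log2 change of Bnip3 was 2.36 (SE 0.27, adjusted p = 0.00356), and 2.36 (SE 0.35, adjusted p = 0.0262) with the block. Ankrd37 rose by 3.19 (SE 0.40, adjusted p = 0.00373), and 3.28 (SE 0.49, adjusted p = 0.0262) with the block.

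**Figure D1:**
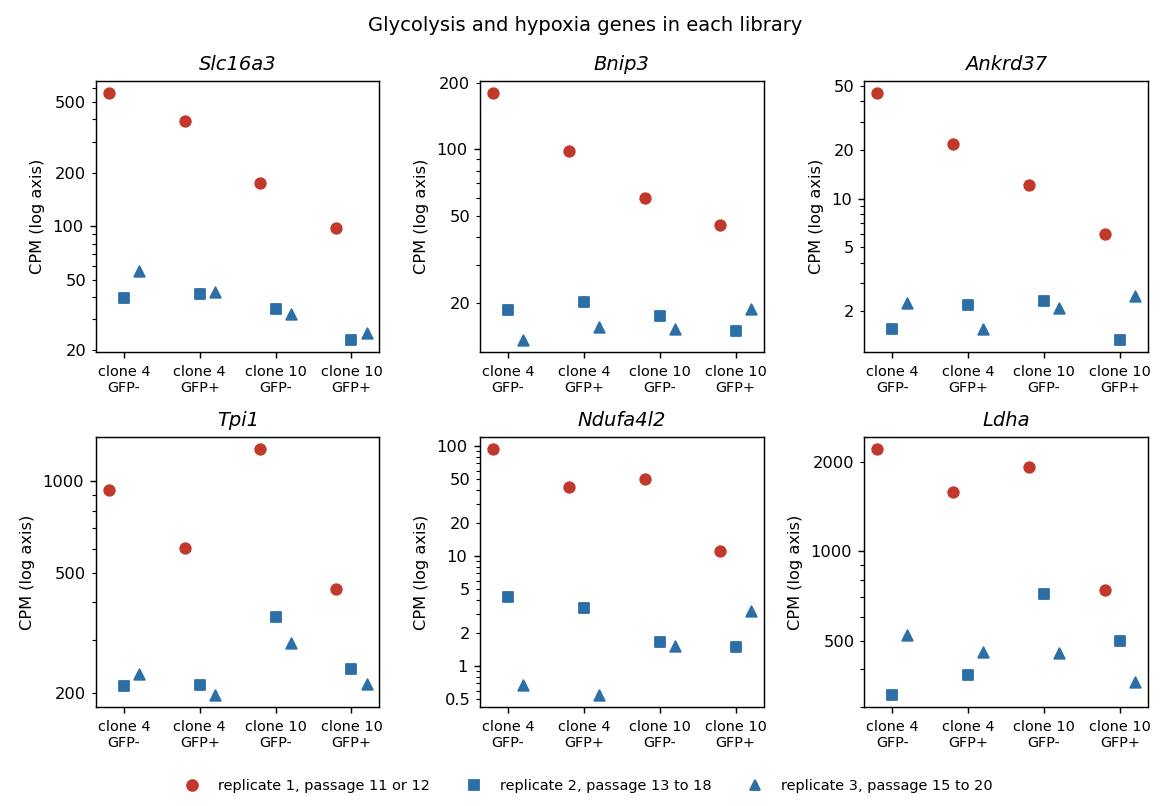
Level of 6 genes of glycolysis and the hypoxia response in each of the 12 libraries, in CPM on log axes, by clone and GFP gate. Circles are the earliest libraries and squares and triangles the later libraries numbered 2 and 3. For Slc16a3 the earliest libraries lie between 97.3 and 561 CPM and all 8 later libraries at or under 55.96 CPM.

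The glycolytic pathway is given from uptake to lactate export. Slc2a1, the main glucose transporter, stood at 2509.7, 2135, 919 and 701 CPM against 232 to 564 CPM with a median of 436, a log2 change of 1.84 (SE 0.34, adjusted p = 0.0139). Pfkl, a subunit of the phosphofructokinase that commits sugar to glycolysis, stood at 640.2, 508, 619 and 263 CPM against 143 to 205 CPM with a median of 172, a change of 1.51 (SE 0.19, adjusted p = 0.0041). Both were higher in every earliest library than in any later one, and clone 10 GFP-positive cells were the lowest of the earliest 4 for each. Aldoa, an aldolase, stood at 4916, 2737, 4696 and 1859 CPM against 956 to 1541 CPM with a median of 1177, a change of 1.49 (SE 0.20, adjusted p = 0.00442). Tpi1 (ENSMUSG00000023456, mm10 chromosome 6, 124810586 to 124814296), which interconverts the triose phosphates, stood at 932, 602, 1277 and 441 CPM against 197 to 357 CPM with a median of 223. It rose by 1.66 (SE 0.17, adjusted p = 0.00266), and 1.64 (SE 0.29, adjusted p = 0.0478) with the block. Neither gene's sets overlapped, and for Tpi1 the earliest clone 10 GFP-negative library was the highest of all 12. Slc2a1 (adjusted p = 0.0762), Pfkl (adjusted p = 0.0762) and Aldoa (adjusted p = 0.0995) were not called with the block.

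Further down the pathway, Pgk1 (1.43, SE 0.23), which makes ATP from bisphosphoglycerate, Eno1 (1.26, SE 0.21), an enolase, and Pkm (0.95, SE 0.20), a pyruvate kinase, rose. Gpi1 (1.03, SE 0.17) and Pfkp (1.39, SE 0.31), enzymes of earlier steps, rose too. Ldha, which turns pyruvate into lactate, stood at 2214, 1582, 1926 and 743 CPM against 328 to 721 CPM with a median of 456, a change of 1.74 (SE 0.24, adjusted p = 0.0053). Its lowest earliest library, clone 10 GFP-positive, lay just above the highest later one. Pdk1 (1.24, SE 0.27), the kinase that holds pyruvate back from mitochondria, rose as well. Ldha was not called with the block (adjusted p = 0.0632), nor were Pgk1, Eno1, Pkm, Gpi1, Pfkp and Pdk1. Aldoc, a second aldolase that was not on the list, stood at 123, 60.8, 66.1 and 31.6 CPM against 9.39 to 20.4 CPM with a median of 14.9 with no overlap and rose by 2.12 (SE 0.26, adjusted p = 0.00373), and 2.22 (SE 0.32, adjusted p = 0.0262) with the block.

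Among regulators and other known hypoxia targets, Egln3 (ENSMUSG00000035105, mm10 chromosome 12, 54178981 to 54203860), a prolyl hydroxylase that marks hypoxia-inducible factor for degradation and is itself induced by it, stood at 187, 80.4, 61.4 and 35.6 CPM against 6.61 to 19.3 CPM with a median of 12.5. It rose by 2.90 (SE 0.44, adjusted p = 0.00866), without overlap between the sets. Ndrg1 (2.27, SE 0.34), Ddit4 (1.38, SE 0.25), an inhibitor of mTOR signalling, and Higd1a (1.08, SE 0.17), a mitochondrial protein gene, rose too. Egln3 was not called with the block (adjusted p = 0.0632), nor were Ndrg1, Ddit4 and Higd1a. Ndufa4l2 (ENSMUSG00000040280, mm10 chromosome 10, 127514939 to 127517152), a mitochondrial protein gene induced in hypoxia and not on the list, showed the largest rise of the named genes. It stood at 94.3, 42.1, 50.002 and 11.1 CPM against 0.547 to 4.296 CPM with a median of 1.59, a change of 4.40 (SE 0.59, adjusted p = 0.0045), and 4.72 (SE 0.72, adjusted p = 0.0262) with the block. Fam162a, a growth and transformation-dependent protein gene, stood at 124, 85.4, 93.03 and 63.8 CPM against 22.5 to 37.96 CPM with a median of 28.96, a change of 1.61 (SE 0.19, adjusted p = 0.00373) and of 1.60 (SE 0.27, adjusted p = 0.0416) with the block. Mgarp, which acts in mitochondrial transport, stood at 32.9, 23.4, 15.7 and 10.8 CPM against 2.51 to 12.02 CPM with a median of 6.17, so that its sets overlapped although each group's earliest library was the highest, and changed by 1.72 (SE 0.22, adjusted p = 0.00373), and by 1.73 (SE 0.27, adjusted p = 0.0262) with the block.

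Over all genes tested 6.88% rose and 5.83% fell, with a median log2 change of -0.02. Of the 34 genes of the glycolysis and hypoxia list, all tested, 18 rose and 0 fell, with a median of 1.08. The 16 that did not pass include Vegfa, the angiogenic factor gene, at 125, 65.5, 49.9 and 79.9 CPM against 17.8 to 109 CPM with a median of 70.1, a change of 0.18 (SE 0.48, adjusted p = 0.821). Its sign turned without both earliest libraries of clone 4 (-0.25), without the GFP-negative one alone (-0.13) and without clone 4 GFP-negative replicate 3 (-0.043). With the block 4 of the 34 were called, Slc16a3, Bnip3, Ankrd37 and Tpi1. The list median was 1.53 in clone 4 and 0.65 in clone 10. All 18 that rose were above both later libraries in all 4 groups, as were 1662 (10.9%) of all genes tested. The call and this order come from the same libraries, so the order is not separate support. With the correction for gene length 19 were called, with a median of 1.04. Without the earliest clone 4 GFP-negative library 7 members were called, without the earliest clone 10 GFP-negative library 8, and without the earliest clone 4 GFP-positive library 13. In other single removals 18 or 19 were called.

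**Figure D2:**
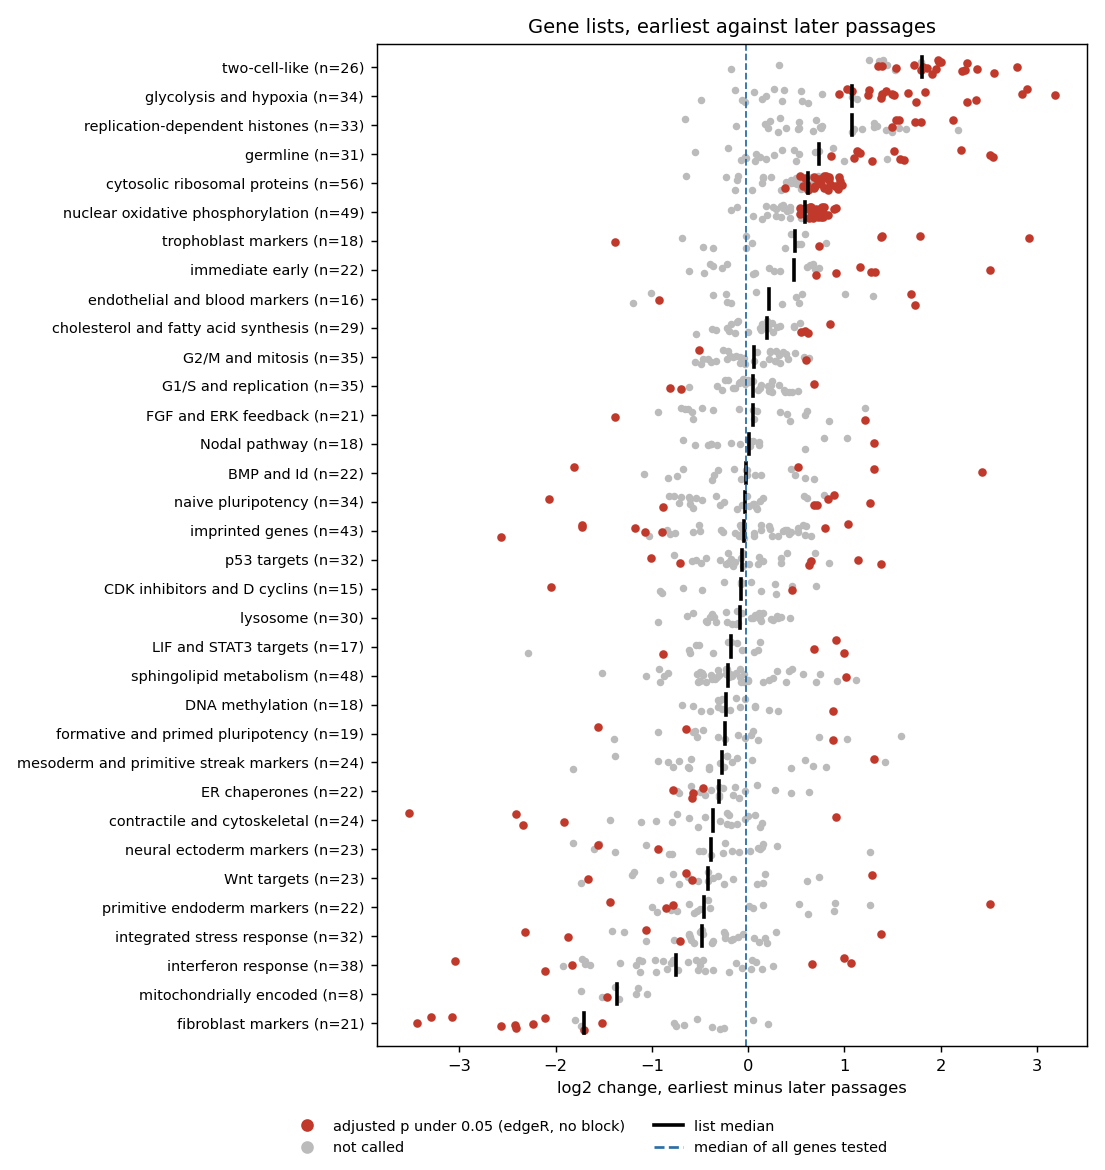
Log2 change of each tested member of 34 gene lists, earliest minus later, with red points at an adjusted p under 0.05 in edgeR without the block and grey points not called. Black bars are list medians and the dashed line is the median over all genes tested; the two-cell-like and glycolysis and hypoxia lists lie farthest to the right, with medians of 1.81 and 1.08, and fibroblast markers farthest to the left, at -1.71.

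Of 26 tested members of the two-cell-like list 18 rose and 0 fell, against 6.88% higher and 5.83% lower over all genes tested. The list's median was 1.81, the highest of the lists. The median was 2.62 in clone 4 and 1.02 in clone 10. No member was called in clone 10, where only 1 of all 15179 genes tested (0.00659%) was. Zfp352, a zinc finger gene active in the two-cell embryo, stood at 0.223, 10.1, 11.2 and 191 CPM against 0.0396 to 54.9 CPM with a median of 1.66. Its level differed widely among clones and gates and the sets overlapped, while in each group the earliest library was the highest. Its change was 2.37 (SE 0.34, adjusted p = 0.00598), and 2.53 (SE 0.44, adjusted p = 0.0478) with the block. Zscan4c (2.00, SE 0.31), which acts on telomeres, Zscan4d (1.86, SE 0.34) and Tcstv3 (2.25, SE 0.40) rose in edgeR without the block only. Tdpoz3 changed by 2.55 (SE 0.65, adjusted p = 0.0326), from libraries as low as 0 and 0.0446 CPM, so the size of its change is uncertain. Reads can be shared among the near-identical copies of many genes on this list, which makes single members uncertain. Called members numbered 1, 2 and 4 without the earliest clone 4 GFP-negative, clone 10 GFP-negative and clone 4 GFP-positive library respectively, 6 with the correction for gene length and 1, Zfp352, with the block.

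Of 31 tested germline genes 11 rose and 0 fell, against 6.88% higher and 5.83% lower over all genes tested. The list's median was 0.73. Tex101, a germ cell surface protein gene, stood at 6.25, 10.6, 1.12 and 2.92 CPM against 0.185 to 1.64 CPM with a median of 0.693 and changed by 2.54 (SE 0.32, adjusted p = 0.00373), and 2.68 (SE 0.40, adjusted p = 0.0262) with the block. Rhox5, a homeobox gene of the X-linked Rhox cluster, stood at 7.27, 5.89, 43.6 and 20.9 CPM against 0.502 to 10.03 CPM with a median of 4.33, a change of 2.51 (SE 0.31, adjusted p = 0.00373). In both genes the sets overlapped across groups, while each earliest library exceeded both later ones of its own group. Rhox6 (1.61, SE 0.24) and Tuba3a (1.13, SE 0.17) rose as well. Rhox5 was not called with the block (adjusted p = 0.0673), nor were Rhox6 and Tuba3a. Called members numbered 2, 3 and 6 without the same 3 earliest libraries and 6 higher and 1 lower with the correction for gene length.

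Among 18 tested trophoblast markers 5 rose and 1 fell, with a median of 0.48, against 6.88% higher and 5.83% lower over all genes tested. With the block 2 were called, the keratin genes Krt19 and Krt8, which build intermediate filaments of simple epithelia. Krt19 (ENSMUSG00000020911, mm10 chromosome 11, 100140810 to 100148665) stood at 108, 124, 32.4 and 31.8 CPM against 4.51 to 15.9 CPM with a median of 9.37, a change of 2.92 (SE 0.39, adjusted p = 0.0045), and 2.91 (SE 0.43, adjusted p = 0.0262) with the block. Krt8 (ENSMUSG00000049382, mm10 chromosome 15, 101996711 to 102004342) stood at 80.8, 79.3, 62.7 and 120.2 CPM against 21.9 to 46.6 CPM with a median of 32.8, a change of 1.38 (SE 0.17, adjusted p = 0.00373), and 1.43 (SE 0.25, adjusted p = 0.0436) with the block. Neither overlapped between the sets, and for Krt19 both earliest libraries of clone 4 were above both of clone 10. Krt18 (1.39, SE 0.32), the filament partner of Krt8, and the transcription factor gene Tead4 (0.73, SE 0.19) rose too, while Fgfr2 (-1.38, SE 0.37), a fibroblast growth factor receptor gene, fell. The defining placental markers Tpbpa and Prl3d1 were at 0 in all libraries, and the summed level of the list was 753 to 1228 CPM in the earliest and 415 to 808 CPM in the later libraries. Without the earliest clone 4 GFP-negative library 1 member rose, and 2 rose without the earliest library of either clone 4 GFP-positive or clone 10 GFP-negative cells. The number was 3 without clone 4 GFP-negative replicate 3 or either replicate 2 of clone 10.

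Of 22 tested immediate early genes, which answer serum and stress within minutes to hours, 6 rose and 0 fell, with a median of 0.47, against 6.88% higher over all genes tested. Zfp36, whose product destabilizes short-lived messages, stood at 65.99, 69.3, 41.2 and 46.1 CPM against 14.5 to 30.7 CPM with a median of 23.6, a change of 1.28 (SE 0.18, adjusted p = 0.00583), and 1.33 (SE 0.23, adjusted p = 0.0433) with the block. Junb (0.91, SE 0.15), the phosphatase gene Dusp1 (1.17, SE 0.22) and the nuclear receptor gene Nr4a1 (0.71, SE 0.14) rose as well. Junb, Dusp1 and Nr4a1 were not called with the block. The counts were 0 and 1 without the earliest GFP-negative library of clone 4 and of clone 10, and 2 without that of clone 4 GFP-positive cells.

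The other genes called with the block covered varied functions. Grin1 (ENSMUSG00000026959, mm10 chromosome 2, 25291181 to 25319187), an obligatory subunit of the NMDA receptor, stood at 85.8, 40.5, 14.96 and 7.12 CPM against 0.73 to 4.31 CPM with a median of 2.15, a change of 3.75 (SE 0.57, adjusted p = 0.00813), and 3.84 (SE 0.53, adjusted p = 0.0262) with the block. Itgb7, an integrin chain, stood at 60.3, 44.9, 67.9 and 31.3 CPM against 11.9 to 18.5 CPM with a median of 13.4, a change of 1.82 (SE 0.16, adjusted p = 0.000849), and 1.82 (SE 0.25, adjusted p = 0.0262) with the block. Aire, a transcriptional regulator known from the thymus, stood at 253, 179, 43.8 and 43.6 CPM against 13.8 to 32.3 CPM with a median of 21.9, a change of 2.16 (SE 0.29, adjusted p = 0.00442), and 2.20 (SE 0.34, adjusted p = 0.0262) with the block. None of the 3 overlapped between the sets. The changes of Itgb7 were 2.04 in clone 4 and 1.60 in clone 10, closer to each other than those of Grin1, at 4.97 in clone 4 and 2.05 in clone 10, or Aire, at 2.90 in clone 4 and 1.25 in clone 10, although no difference between clones was called by edgeR.

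Smaller or lower-level genes followed. With the block, Gstp2 (2.44, SE 0.36, adjusted p = 0.0262), a glutathione transferase, Mt4 (2.95, SE 0.47, adjusted p = 0.0322), a metallothionein, Dmkn (2.58, SE 0.41, adjusted p = 0.0306), a secreted epithelial protein, and Nppb (3.004, SE 0.54, adjusted p = 0.0493), a natriuretic peptide, rose. So did Nxph4 (3.03, SE 0.54, adjusted p = 0.0493), Chi3l1 (2.39, SE 0.40, adjusted p = 0.0433), a chitinase-like protein, Liph (1.64, SE 0.28, adjusted p = 0.0436), a lipase, and Tex19.2 (2.20, SE 0.39, adjusted p = 0.0478). Anxa2 (1.62, SE 0.27, adjusted p = 0.0416), an annexin, Lgals3 (1.42, SE 0.24, adjusted p = 0.0416), galectin-3, and Cyp2s1 (1.98, SE 0.35, adjusted p = 0.0492), a cytochrome P450, rose as well. Iqcf1, an IQ motif gene, was among the 12 largest rises without the block (2.95, SE 0.58, adjusted p = 0.0164) and was not called with it (adjusted p = 0.176). Of the 28 genes, only Slc16a3 stayed called with the block in all 12 removals of 1 library. The count was 1 without the earliest library of clone 4 GFP-negative or GFP-positive cells, 2 without that of clone 10 GFP-negative cells, 56 without that of clone 10 GFP-positive cells and 139 without clone 10 GFP-positive replicate 3. Removing any other later library gave 8 to 18 calls, except clone 4 GFP-positive replicate 2, with 30 calls.

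Gli2 (ENSMUSG00000048402, mm10 chromosome 1, 118834132 to 119053619), a transcription factor of Hedgehog signalling, was the only gene that fell with the block. It stood at 30.9, 32.4, 48.8 and 35.7 CPM against 61.7 to 115 CPM with a median of 76.6. All earliest libraries were below all later ones, with a change of -1.21 in clone 4 and -1.08 in clone 10. The change was -1.14 (SE 0.14, adjusted p = 0.00373), and -1.14 (SE 0.19, adjusted p = 0.0416) with the block.

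**Figure D3:**
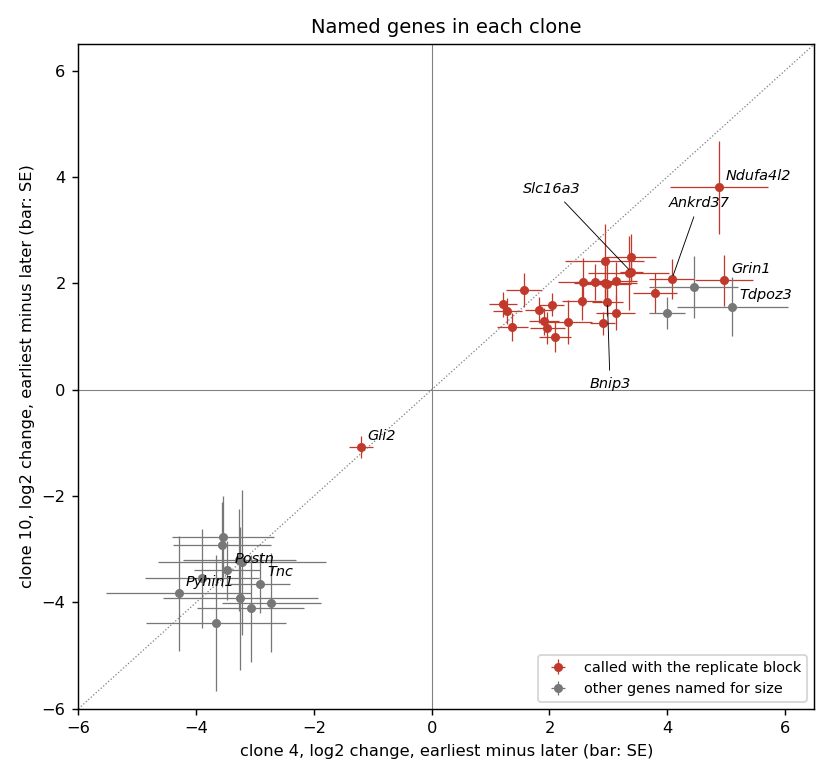
Log2 change of the named genes in clone 4 (horizontal) and clone 10 (vertical), earliest minus later, with bars of 1 SE. Red points were called with the replicate block and grey points were named for size only; Slc16a3 lies at 3.39 and 2.21, and Gli2 at -1.21 and -1.08.

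The second question was whether both clones showed the difference, since their libraries are separate. Clone 4 had 161 genes called (1.06%), 136 higher and 25 lower, and clone 10 had 1 (0.00659%), Slc16a3, with 2881 genes at an unadjusted p under 0.05 in clone 10 and 826 called by DESeq2. Of the 136 genes higher in clone 4, 130 were above 0 in clone 10 with a median of 1.14, and 112 had the earliest library above both later ones in both gates of clone 10. Of the 25 lower, 22 were below 0 in clone 10 with a median of -0.73, and 20 were below both later libraries in both gates. Over all genes 48.2% were above 0 in clone 10. The share of all genes beyond both later libraries in both gates of clone 10 was not counted. The 112 and 20 therefore stand without a background. Across the 15179 genes, which are not independent replicates, the changes of the clones had a Pearson r of 0.604 and a Spearman rho of 0.635.

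Slc16a3 changed by 3.39 in clone 4 and 2.21 in clone 10, with adjusted p = 9.43e-05 and 0.00539. Egln3 changed by 4.00 in clone 4 and 1.44 in clone 10, Grin1 by 4.97 in clone 4 and 2.05 in clone 10, Ankrd37 by 4.08 in clone 4 and 2.08 in clone 10, Iqcf1 by 4.45 in clone 4 and 1.93 in clone 10 and Tdpoz3 by 5.11 in clone 4 and 1.56 in clone 10. All 5 were larger in clone 4. The naming rule took the largest changes among genes called in each clone, and clone 10 had 1 call, so the choice itself favours this order. For the difference between clones edgeR called 0 genes (440 at an unadjusted p under 0.05, smallest adjusted p = 0.579), and DESeq2 called 18. The falls named in clone 4 were Trim30a, at -3.09 in clone 4 and -2.39 in clone 10, Tll1, at -3.17 in clone 4 and -2.25 in clone 10, Rnf213, at -2.57 in clone 4 and -0.71 in clone 10, Col5a2, at -2.51 in clone 4 and -3.76 in clone 10, Postn, at -3.48 in clone 4 and -3.40 in clone 10, and Tnc, at -2.92 in clone 4 and -3.65 in clone 10. The interferon-inducible Rnf213 stood at 55.9, 133, 341 and 378 CPM in the earliest libraries, below the later 404 to 685 CPM, and lowest in clone 4. With the block clone 4 had 11 calls and clone 10 had 0, with 434 genes of clone 10 at an unadjusted p under 0.05. Leaving out its own earliest GFP-negative or GFP-positive library left clone 4 with 7 or 5 calls, and other removals with 77 to 149. Clone 10 had 492 calls without its earliest GFP-positive library and 0 without any 1 of its 3 GFP-negative libraries, so that its call of Slc16a3 needed each of those.

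The largest falls are given next, beginning with Postn, Tnc and Col5a2, which encode proteins of the extracellular matrix. Postn (ENSMUSG00000027750, mm10 chromosome 3, 54361109 to 54391034), periostin, stood at 1.29, 0.18, 0.836 and 0.717 CPM against 2.19 to 16.4 CPM with a median of 8.42, a change of -3.44 (SE 0.38, adjusted p = 0.00338), and -3.22 (SE 0.58, adjusted p = 0.0511) with the block. Tnc (ENSMUSG00000028364, mm10 chromosome 4, 63959785 to 64047015), tenascin C, stood at 15.8, 4.63, 3.904 and 10.2 CPM against 36.4 to 161 CPM with a median of 77.1, a change of -3.24 (SE 0.37, adjusted p = 0.00373), and -3.20 (SE 0.58, adjusted p = 0.0511) with the block. Col5a2, a fibrillar collagen chain, stood at 4.86, 1.44, 1.301 and 2.97 CPM against 8.16 to 47.4 CPM with a median of 24.4, a change of -3.07 (SE 0.38, adjusted p = 0.00373), and -2.94 (SE 0.56, adjusted p = 0.0626) with the block. For all 3 genes the earliest libraries lay below every later one and the block left them just short of the threshold.

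Thbs1 (-3.52, SE 0.66), thrombospondin 1, Col8a1 (-3.99, SE 0.83) and Col1a2 (-3.29, SE 0.63), collagen chains, Wisp2 (-3.71, SE 0.64) and Ccdc80 (-3.24, SE 0.64), matrix-associated proteins, and Ptn (-3.11, SE 0.57), the growth factor pleiotrophin, fell as well. So did Sdpr (-3.59, SE 0.90), a protein of caveolae, the interferon-inducible Pyhin1 (-4.01, SE 0.77), Cp (-3.24, SE 0.93), ceruloplasmin, and Crisp1 (-3.22, SE 0.56). None of the 12 largest falls was called with the block. Other than Thbs1, Col1a2 and Tnc, these 12 genes were under 2 CPM in every earliest library, so the size of their changes is uncertain. Cp stayed called in 4 and Sdpr in 6 of the 12 removals of 1 library, losing the call without any of the 4 earliest libraries.

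Of 21 tested fibroblast markers 10 fell and 0 rose, against 5.83% lower and 6.88% higher over all genes tested. The list's median was -1.71. With the block 0 were called, the smallest adjusted p being 0.0511. The median was -1.28 in clone 4 and -1.74 in clone 10. Acta2 (-2.41, SE 0.40), smooth muscle actin, and Dcn (-2.57, SE 0.49), decorin, were among those that fell. The mean log2 CPM of the 21 markers was 4.10, 2.78, 2.95 and 3.73 in the earliest libraries, and the later pairs of the same groups had 5.49 and 4.93, 4.35 and 3.74, 4.99 and 6.07, and 4.21 and 5.24. Each earliest library was thus below both later libraries of its group. The mean difference was -1.49, with p = 0.111 in an exact permutation test that moved the earliest label among the 3 pairs of each clone (two-sided, 9 assignments, adjusted p = 0.333 over 3 measures). That is the smallest p the 9 assignments allow. Each of the 23 listed markers had reads in some library. Their summed level was 1547 to 1985 CPM in the earliest and 1687 to 4372 CPM in the later libraries. By this sum the earliest clone 4 GFP-positive library, at 1884 CPM, lay above replicate 3 of its group, at 1687 CPM. In the other groups the earliest library was the lowest by the sum as well. The part of these markers in the other differences was not tested. Called members numbered 3 and 2 without the earliest GFP-negative library of clone 4 and of clone 10 and 6 without that of clone 4 GFP-positive cells.

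The share of counts in mitochondrially encoded genes was 0.594%, 0.851%, 0.143% and 0.849% in the earliest libraries and 0.845% to 2.32% in the later ones. It was lower in the earliest library of all 4 groups, with a mean difference of -0.898 percentage points that the same exact permutation test gave p = 0.222 (adjusted p = 0.333). Of 8 tested mitochondrial genes 1 fell, mt-Co1, a subunit of cytochrome oxidase, at 3611, 4889, 898 and 5001 CPM against 6477 to 13124 CPM with a median of 7638, a change of -1.46 (SE 0.39, adjusted p = 0.0369). It was not called with the block (adjusted p = 0.232), and edgeR called it in 4 of the 12 removals of 1 library, losing it without any of the 4 earliest libraries. The list median was -1.36, and 0 to 3 members fell in those removals. Over all genes tested 6.88% rose and 5.83% fell. In contrast to the mitochondrial genes, 26 of 49 nuclear genes of oxidative phosphorylation rose and 0 fell, with a median of 0.59. Among those that rose were Cox7a2 (0.76, SE 0.16), Ndufa4 (0.67, SE 0.14) and Ndufa8 (0.82, SE 0.17). Of 56 cytosolic ribosomal protein genes 27 rose and 0 fell, with a median of 0.63, such as Rpl37 (0.96, SE 0.18) and Rps16 (0.84, SE 0.15). Neither list had a member called with the block or without the earliest GFP-negative library of either clone. Ribosomal protein genes that rose numbered 7 to 14 without clone 4 GFP-positive replicate 1, clone 4 GFP-negative replicate 3, either replicate 2 of clone 10 or clone 10 GFP-negative replicate 3. Oxidative phosphorylation genes numbered 4 to 9 without any 1 of these 5 libraries, clone 4 GFP-negative replicate 2 or clone 4 GFP-positive replicate 3.

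**Figure D4:**
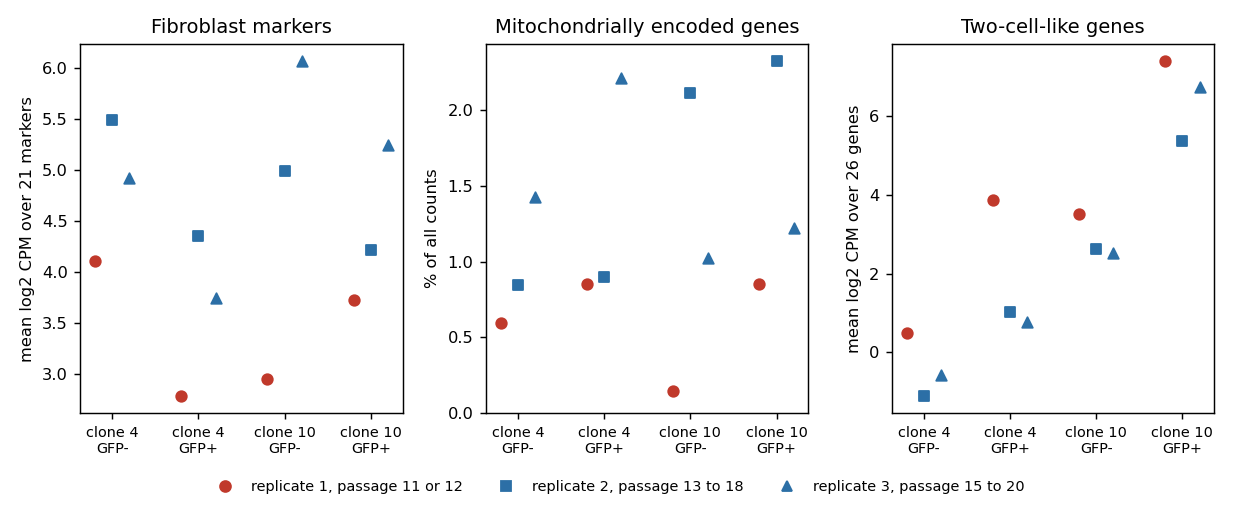
Mean log2 CPM of 21 fibroblast markers, share of counts in mitochondrially encoded genes and mean log2 CPM of 26 two-cell-like genes in each library, by clone and GFP gate. Circles are the earliest libraries, which are lowest in their group for fibroblast markers (4.10, 2.78, 2.95 and 3.73) and mitochondrial share, and highest in their group for two-cell-like genes.

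Changes went with gene length in both clones. Divided into 5 equal bins by exonic length (median 1.63, 2.91, 4.23, 5.97 and 9.65 kb), genes had median log2 changes of 0.44, 0.13, -0.01, -0.17 and -0.40. Of the shortest bin 549 genes rose and 17 fell, and of the longest 37 rose and 558 fell. The medians of the shortest and longest bin were 0.35 and -0.38 in clone 4 and 0.49 and -0.43 in clone 10. Bins by transcript GC content, from lowest to highest, had medians from -0.27 to 0.14. Ribosomal protein, oxidative phosphorylation and histone genes are short, with median lengths of 1.92, 1.93 and 0.63 kb against 4.23 kb over all genes, as are two-cell-like and germline genes at 1.99 and 2.13 kb, and fibroblast markers are longer, at 5.48 kb. With a correction for length, 4 ribosomal protein genes, 0 oxidative phosphorylation genes, 6 two-cell-like genes, 7 germline genes and 7 fibroblast markers were called. The medians of these lists were then 0.23, 0.16, 1.52, 0.47 and -1.38. Members of the glycolysis and hypoxia list had a median length of 4.58 kb, close to that of all genes. With the correction Slc16a3 (2.94, adjusted p = 0.00037), Bnip3 (2.09, adjusted p = 0.00733) and Ankrd37 (2.77, adjusted p = 0.0117) stayed called. Krt18 (0.98, adjusted p = 0.0864), Id1 (1.88, adjusted p = 0.078) and Dppa5a (0.077, adjusted p = 0.736) lost the call. Bnip3 and Ankrd37 were not called with the correction and the block together (adjusted p = 0.07345 for each). Whether length caused single differences was not tested.

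**Figure D5:**
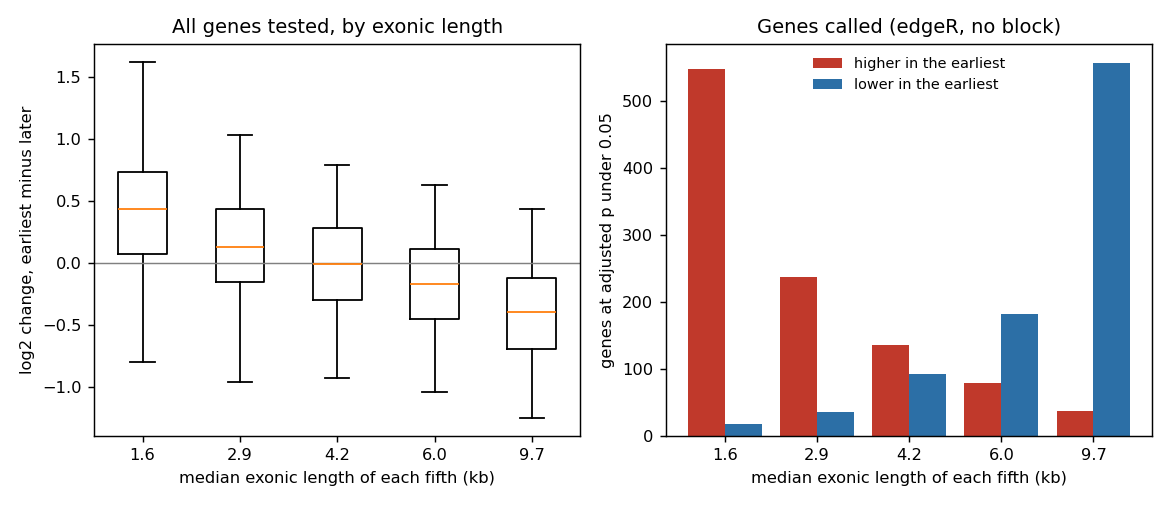
Left, log2 change of all genes with a known length in 5 bins of exonic length, as boxes from the lower to the upper quartile with the median and whiskers from the 5th to the 95th percentile. Right, number of genes called higher (red) or lower (blue) in the earliest libraries in each bin by edgeR without the block, from 549 and 17 in the shortest to 37 and 558 in the longest.

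Replication-dependent histone genes, which are short and lack poly(A) tails in dividing cells, had a median of 1.07. Of 33 tested 6 were higher and 0 lower, against 6.88% higher and 5.83% lower over all genes tested. Hist1h1b (2.12, SE 0.50) and Hist1h4a (1.80, SE 0.41) were among those that rose. The median was 0.37 in clone 4 and 1.58 in clone 10. With the correction for length 0 were called and the median was 0.15, and 0 were called with the block. Removing 1 library left 0 without the earliest GFP-negative library of either clone or clone 10 GFP-negative replicate 2, 1 to 3 without 5 others and 4 to 7 without the rest.

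Pluripotency genes did not move together. Of 34 tested naive pluripotency genes 5 rose and 2 fell, with a median of -0.03, where 12.7% of all genes tested were called. Utf1 (1.26, SE 0.33), Dppa4 (0.83, SE 0.19) and Dppa5a (0.71, SE 0.19) rose, and Tfcp2l1 (-0.89, SE 0.18), a transcription factor of the naive network, fell from a later median of 753 CPM. Formative and primed genes gave 1 rise and 2 falls among 19, and DNA methylation genes 1 rise among 18, the cofactor gene Dnmt3l (0.88, SE 0.24). Among 43 imprinted genes 2 rose and 6 fell, with Ndn (1.03, SE 0.16) higher and Peg3 (-1.73, SE 0.31), Plagl1 (-1.73, SE 0.29) and the matrix gene Dcn lower. None of these 4 lists had a member called with the block. The naive list had 0 called without the earliest GFP-negative library of either clone or the earliest clone 4 GFP-positive library, and 0 with the correction for gene length.

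Most signalling, stress and cell cycle lists held calls in both directions, where 12.7% of all genes tested were called. None of them held a call with the block, where their smallest adjusted p was 0.0813. Among 38 interferon response genes 3 rose and 3 fell, with a median of -0.75, Irf1 (0.99, SE 0.16) being higher and Lgals3bp (-1.82, SE 0.35) and Gbp3 (-2.11, SE 0.47) lower. Of 32 genes of the integrated stress response 1 rose and 4 fell, with the cystine transporter gene Slc7a11 at -2.32 (SE 0.46). Among 22 chaperones of the endoplasmic reticulum 0 rose and 4 fell, with Hsp90b1 at -0.78 (SE 0.21). The BMP list gave 3 rises and 1 fall among 22, with Id1 at 2.43 (SE 0.54) and Bmp4 at 1.30 (SE 0.34). Members of these 4 lists called by edgeR numbered 0 without the earliest GFP-negative library of clone 4, and 0 without that of clone 10. Of 48 genes of sphingolipid metabolism 1 rose, the ceramidase gene Acer1 (1.02, SE 0.30, adjusted p = 0.0487), which stayed called in 1 of the 12 removals of 1 library. Cell cycle genes had medians near 0, with 1 rise and 2 falls among 35 genes of G1/S and replication and 1 rise and 1 fall among 35 of G2/M. Ccnd2, a D-type cyclin gene, fell (-2.04, SE 0.32).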

How the data were processed

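RNA of mouse embryonic stem cells was sequenced in 12 libraries, 4 groups (2 clones by 2 GFP gates) with 1 earliest and 2 later libraries each. The authors deposited raw read counts per gene, as whole numbers. The mm10 build and the following tools are listed per the submitters' processing notes: STAR 2.3.0e, HTSeq 0.6.0, DESeq and DESeq2. Neither the annotation release nor the use of strand in counting was given in the sources used here, so genes that overlap others on either strand are uncertain. Gene coordinates are those the authors deposited. The members and gene lists were chosen with earlier results of these data known.

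Of 22753 genes, 15179 passed a filter on low counts (edgeR filterByExpr by group, minimum count 10, total 15) and 7574 did not. They were fitted with edgeR 4.0.16 (quasi-likelihood, robust, TMM; R 4.3.3) with a term for each group and 1 for the earliest libraries, leaving 7 residual degrees of freedom. A gene was called at a Benjamini-Hochberg adjusted p under 0.05 over all genes tested. A clone fit had an earliest term per clone (6 residual degrees of freedom). Libraries of the same clone and number deviated together from their group means (r 0.548 to 0.822 in all 6 pairs, against -0.541 to -0.228 between numbers), and this correlation is where the pairing comes from. Deviations from a group mean cancel out within the group, which by itself lowers the values between numbers. They also still hold the difference between earliest and later libraries. The pair was therefore also fitted as a random block (limma 3.58.1 voom, correlation 0.611), since a fixed block would take up the passage term. CPM use TMM effective library sizes, and mean log2 CPM a prior count of 2. Each step was tested on simulated data.

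Named genes were the 12 largest changes of each sign among called genes whose mean log2 CPM was 1 or more and whose direction held in all 4 groups, 6 per sign and clone, 4 per sign for the clone difference, up to 4 per list by smallest p, Sphk1 and Sphk2. The 28 genes called with the block, all called glycolysis and hypoxia genes, and Vegfa were added after values were seen. A gene that the rule took from a list, and that was not called, is not reported here. Lengths were known for 15081 genes (99.4%), as the union of exons in GENCODE. Alternatives were DESeq2 1.42.0, voom, RLE size factors, other filters, other designs, length correction and leaving out libraries.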

Additional observations from a re-analysis of the deposited data

Results flagged for a closer look

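Wisp2, a gene of the extracellular matrix that fell in the earliest libraries (log2 change -3.71 (SE 0.64, adjusted p = 0.0123)), had 1 earliest library far from the other 3. On the scale log2 of CPM plus 0.5, the earliest clone 10 GFP-positive library stood at 0.56, and its gap to the nearest other made up 0.853 of the range of the 4. It remained below all 8 later libraries. This was the only such case among 54 sets of values tested, where chance gives about 1 in 20.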

How the results depend on the processing

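The number of genes differing was 1815 with limma-voom, 1923 with RLE size factors, 1784 with no filter, 1970 with a stricter filter, 2387 with additive clone and gate terms and 1583 with a term for replicates 2 and 3, against 1930. It was 3474 with DESeq2, 560 with the length correction, 0 with passage as a number (3435 at an unadjusted p under 0.05), 87 without both earliest libraries of clone 10 and 1 without both of clone 4, and 50 to 2082 with 1 library left out. With the replicate block it was 28, with counts summed over pairs 0, and with the block and the length correction 3. The 28 became 7 without the earliest pair of clone 10, 0 without that of clone 4, and 1 to 139 with 1 library left out. In clone 4 the 161 became 1075 with DESeq2, 11 with the block, 22 with libraries of that clone only, and 5 to 149 with 1 library left out. In clone 10 the 1 became 826 with DESeq2, 2 with no filter, 0 with the block and 0 to 492 with 1 library left out. The 0 genes differing between clones became 18 with DESeq2. The differences in fibroblast markers, mitochondrial share and share of the 10 largest genes kept their direction in every alternative run. The last of these, however, fell from 0.625 to 0.0339 percentage points without the earliest pair of clone 10. In both clones that share was above both later libraries in GFP-negative cells and below both in GFP-positive cells. Of 2447 values of single genes under the alternatives other than leaving out 1 library, 1535 kept their direction and side of the threshold, 870 lost the call, 37 gained it and 5 changed sign. Those 5 were Sphk1 (0.48 without the earliest pair of clone 10), Vegfa (-0.25 without that of clone 4, and -0.13 to 0.55 with 1 library left out), Ndufa1 (-0.052 with the length correction and -0.047 with the block as well) and Tet2 (0.044 with both). The cause of these changes was not tested, except that leaving out libraries leaves fewer samples. Genes at a few counts in a library are limited by depth.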
